A study of Mus musculus with 8 samples.

Results

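The mRNAs of 8 genes of the IL6 and IL10 cytokine families were followed through the first 2 h of LPS stimulation in RAW264.7 cells, a transformed mouse macrophage line. They are 4 secreted ligands (Il6, Lif, Osm and Il10) and 4 receptor chains (Il6st, Il6ra, Il10ra and Il10rb). The genes were taken from the count table by their symbols and make up 8 of its 23141 genes.

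IL6, LIF and oncostatin M (OSM) all signal through the shared chain gp130, encoded by Il6st, whereas IL10 signals through a complex of IL10RA, which binds the cytokine, and the shared chain IL10RB. Both kinds of receptor activate JAK kinases and the transcription factor STAT3. IL6 is one of the best known inflammatory products of LPS-stimulated macrophages, and IL10 is the cytokine by which these cells restrain their own activation.

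The libraries were made from untreated cells (0 min) and from cells treated with 100 ng/ml LPS, a component of the bacterial outer membrane, for 15, 30, 45, 60, 75, 90 or 120 min. Each of the 8 time points has 1 library, so no time point has a replicate, no test of the treatment is possible, and every interval below is a 95% interval for counting error only. All libraries come from 1 cell line, cultured in the same medium, and the labels do not say whether the time points were separate cultures. The study described the RNA as total RNA, while 1 of the labels calls the RNA fraction cytoplasmic.

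The libraries held 100229997 to 159036125 counts on genes. The ribosomal RNA precursor Rn45s took 8.18% to 9.11% of them at 0, 30, 60 and 120 min, but 12.96%, 16.64%, 20.54% and 15.81% at 15, 45, 75 and 90 min, so these 4 libraries stood apart from the rest. Values within each of these sets of libraries are therefore given beside the results, and the part of the Rn45s share in any of them was not tested. A count of 0 allows up to 3 counts, which is 0.0299 cpm (counts per 1000000 counts of the library) in the shallowest library. All 8 macrophage markers examined, among them Csf1r, Cd68 and Itgam, were present in every library with a summed level of 5739 to 6951 cpm. The markers of T cells, B cells, dendritic cells, neutrophils, fibroblasts and endothelium summed to at most 1.82 cpm per list, with Cd3g, Pax5, Col1a1 and Col3a1 at 0 counts in all libraries. Other members of these lists were counted in every library, Zbtb46 with up to 238 counts, Lck 157, S100a8 69 and Pdgfrb 31. The neutrophil marker Ly6g had no row in the count table. Among the macrophage markers, Cd14 was 3.65-fold higher at 120 min than at 0 min and Fcgr1 was at 0.381 of its 0 min level.

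In the mouse genome (GRCm38), Osm (chr11:4236785-4241026) and Lif (chr11:4257568-4272514) are neighbours with 16541 bases between the end of Osm and the start of Lif. The other genes lie apart, Il6 at chr5:30013114-30019975, Il10 at chr1:131019845-131024970, Il6st at chr13:112464070-112506860, Il6ra at chr3:89869324-89913196, Il10ra at chr9:45253837-45269149 and Il10rb at chr16:91406157-91425834. Il6, Il6ra and Il10ra each overlap another annotated gene (A230098N10Rik, Gm46811 and Mir7086), none of which has a row in the count table. Whether the counting used the strand of the reads is not given in the sources used here, so reads of an overlapping gene cannot be told apart from those of these 3 genes. No 58-base stretch, the length of a read, was shared between a transcript of the 8 genes and that of another gene in the count table. Sequences were compared on the strand of the transcript only. The 3 overlapping genes have no row there and were not part of this comparison.

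The promoters of Il6 and Lif are shown because these mRNAs had the largest increases of the 8. Each sequence is from RefSeq (GRCm38), reads 5′ to 3′ on the plus strand, and covers 250 bases before the transcription start and 50 bases after it. Capitals mark matches to the kappa B decamer bound by NF-kappa B, to the AP-1 heptamer TGANTCA and to TGACG, the core shared by many CRE sites, each searched on both strands.
Il6 (chr5:30012864-30013163): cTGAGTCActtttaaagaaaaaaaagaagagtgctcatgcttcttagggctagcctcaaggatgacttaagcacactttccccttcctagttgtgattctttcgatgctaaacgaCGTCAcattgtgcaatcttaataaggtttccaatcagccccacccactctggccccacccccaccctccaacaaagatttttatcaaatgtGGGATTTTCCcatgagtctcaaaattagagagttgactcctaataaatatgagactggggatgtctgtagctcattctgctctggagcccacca
Lif (chr11:4257318-4257617): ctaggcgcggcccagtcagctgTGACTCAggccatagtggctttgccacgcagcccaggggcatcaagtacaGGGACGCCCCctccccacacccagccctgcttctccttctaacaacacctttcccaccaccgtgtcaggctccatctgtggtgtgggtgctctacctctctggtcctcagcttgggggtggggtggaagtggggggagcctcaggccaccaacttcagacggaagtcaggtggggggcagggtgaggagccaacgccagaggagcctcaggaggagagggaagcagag

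In the Il6 promoter, the kappa B match GGGATTTTCC lay 44 to 35 bases upstream of the start, the AP-1 match 249 to 243 bases upstream and the TGACG match, on the minus strand, 135 to 131 bases upstream. In the Lif promoter, the kappa B match GGGACGCCCC lay 178 to 169 bases upstream and the AP-1 match 228 to 222 bases upstream. Of 32544 promoters of this length in the table, 8.49% held a kappa B match, 7.79% an AP-1 match and 20.9% a TGACG match. The promoters of the receptor genes Il6st and Il6ra held neither a kappa B nor an AP-1 match, and Il6ra had 1 TGACG match, 236 to 232 bases upstream. The STAT motif TTCNNNGAA, found in 8.33% of all promoters, was in none of these 4. These are matches of letters, not measured binding sites. The promoters of Osm, Il10, Il10ra and Il10rb were not used here.

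AU-rich elements in 3′ untranslated regions control the stability and translation of many inflammatory mRNAs, and the nonamer TTATTTATT is their classical core. It was present in 2 of the 8 genes and in 7.54% of 11301 tested genes with an annotated 3′ untranslated region. The windows below give it in capitals with the flanking bases, 5′ to 3′ on the strand of the mRNA (GRCm38). The nonamers of Il10ra were 3, of which the first overlaps one that starts 4 bases further on and is not shown separately.
Lif, first (chr11:4272039-4272067): aaaggggcctTTATTTATTatttaaaact
Lif, second (chr11:4272402-4272430): cagattatttTTATTTATTcaatgtcata
Il10ra, first (chr9:45254123-45254151): ctgggaacctTTATTTATTtatttgctca
Il10ra, last (chr9:45254103-45254131): atttgctcacTTATTTATTgaggaagcag

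The shorter pentamer ATTTA was more widely spread. Il6 had 6 pentamers in 427 bases of 3′ untranslated region (14.1 per kb), Il10 had 6 in 706 bases (8.499 per kb), Osm 6 in 1017 bases (5.90 per kb) and Lif 7 in 3180 bases (2.20 per kb). Among the receptor chains, Il10rb had 4 in 711 bases (5.63 per kb), Il10ra 3 in 1693 bases (1.77 per kb), Il6st 9 in 5641 bases (1.60 per kb) and Il6ra 1 in 1837 bases (0.544 per kb). Per kb, the 4 ligands thus stood at 2.20 to 14.1 and the 4 receptor chains at 0.544 to 5.63, ranges that overlap because of Il10rb.

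Lif, Il6, Il10 and Osm mRNAs were all higher at 120 min than at 0 min, by factors of 3012, 1139, 45.1 and 7.37 in normalized counts. Of the receptor chains, Il10ra was 2.68-fold higher, Il10rb was at 0.975, Il6st at 0.842 and Il6ra at 0.685 of the 0 min level. Normalized counts are read counts divided by the median-of-ratios size factor of the library, and a ratio always refers to the 0 min library unless another is named. Since these are bulk libraries, fewer cells with an mRNA and less of it per cell cannot be told apart.

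A gene was counted as higher or lower when its ratio was at least 2-fold, among the 12164 genes whose normalized count averaged 10 or more over the libraries. All 8 genes passed this limit, but Il6, Lif and Il10 had normalized counts below 10 at 0 min and passed it through the later libraries in which they were high. At 30 min 4 of the 8 genes were higher (Il6, Lif, Osm and Il10) and 0 lower, against 1.68% higher and 0.419% lower among all tested genes, but for Il6 and Il10 the counting interval of the ratio at 30 min included 1. The same 4 ligands were higher at 60 min and 0 genes were lower, against 3.73% and 1.98%. At 120 min 5 genes were higher, the ligands and Il10ra, and 0 lower, against 6.39% and 6.02%. Median log2 ratios, here and below, were taken with 1 added to both normalized counts. The median log2 ratio of the 8 genes was 1.79 at 60 min and 2.15 at 120 min, that of all tested genes -0.00 and -0.01.

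The numbers of all genes past 2-fold depended on the scale more than those of the 8 genes did. At 120 min 777 genes were higher and 732 lower, but 578 and 1075 when total counts were the scale, and 657 and 920 with the spike-in transcripts. At 60 min 454 genes were higher and 241 lower, but 307 and 510 with the spike-in transcripts. The number of the 8 genes called stayed at 4 and 5 higher and 0 lower on each of these scales.

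Il6, the ligand that engages gp130 after binding IL6RA, started from almost no reads. In the order of time, from the untreated library to that of 120 min and kept so for the other genes, the libraries held 1, 0, 4, 1, 13, 26, 123 and 1202 counts of Il6. The first 4 libraries cannot be told from one another at this depth, and the interval of the ratio to 0 min first lay above 1 at 60 min. The ratio was 13.5 at 60 min (2.03 to 575), 183 at 90 min (32.2 to 7268) and 1139 at 120 min (204 to 45015), with upper bounds that are wide because 0 min held 1 count. With 1 added to both normalized counts, the ratio was 6.78 at 60 min and 526 at 120 min. Counted from the 60 min library, which holds more reads, Il6 was 84.2-fold higher at 120 min (49.0 to 159), and this ratio is between libraries of low Rn45s share. Within the libraries of high Rn45s share, the step from 75 to 90 min was 4.27-fold (2.78 to 6.79). The last interval, which was longer than each of the others, was the steepest in absolute terms. Of the gain in normalized counts between 0 and 120 min, 84.0% came after 90 min. This step runs from a high to a low Rn45s library, as it does for the other genes.

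Lif encodes leukaemia inhibitory factor, which signals through gp130 paired with the LIF receptor. The 8 libraries held 4, 3, 42, 65, 290, 495, 1346 and 12718 counts of Lif in the same order. It thus left the 0 min level between 15 and 30 min, when Il6 was still at 4 counts, and was higher at each later time than at the one before. The ratio to 0 min was 10.05 at 30 min (3.65 to 38.6), 75.5 at 60 min (29.2 to 279) and 3012 at 120 min (1176 to 11057). Within the low Rn45s libraries the increase from 60 to 120 min was 39.9-fold (35.5 to 45.0), and within the high Rn45s libraries Lif was 25.7-fold (8.42 to 128), 244-fold (83.1 to 1188) and 599-fold (204 to 2906) above 15 min at 45, 75 and 90 min. After 90 min came 83.4% of the gain in normalized counts, close to the share for Il6. From 90 to 120 min, Lif rose 6.03-fold (5.70 to 6.38) and Il6 6.24-fold (5.18 to 7.57), intervals that overlap. On a log2 scale with 1 added to both normalized counts, only 3 of the 12164 tested genes had a larger increase than Lif at 120 min, where it ranked 4, Il6 7 and Il10 42.

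Osm, the oncostatin M gene next to Lif, behaved differently from its neighbour. For Osm the counts in this order were 413, 422, 1008, 2285, 3120, 1504, 1697 and 3212. Osm was the only ligand of the 4 with more than 5 counts at 0 min, and it had reached 7.30-fold (6.57 to 8.13) by 45 min and 7.86-fold (7.09 to 8.73) by 60 min. On this scale it did not pass that level later, being at 5.99 (5.37 to 6.70) at 75 min, 6.10 (5.47 to 6.81) at 90 min and 7.37 (6.65 to 8.18) at 120 min. The dip at 75 and 90 min falls on libraries of high Rn45s share. Within these, Osm was 6.43-fold (5.79 to 7.15) above 15 min at 45 min, 5.27-fold (4.73 to 5.89) at 75 min and 5.37-fold (4.82 to 5.98) at 90 min. Within the low Rn45s libraries, the 120 min level was 0.937 of the 60 min level (0.892 to 0.985). The direction of this small difference depended on the scale. The ratios to 0 min at 60 and 120 min were 7.36 and 6.41 with total counts, but 6.40 and 6.81 with the spike-in counts. Both sets thus hold a plateau or a small change after the first hour, where Lif and Il6 continued upward.

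Il10 encodes the anti-inflammatory cytokine IL10. The counts of Il10 from 0 to 120 min were 5, 4, 12, 8, 53, 113, 156 and 238. The ratio to 0 min was 2.30 at 30 min, with an interval of 0.753 to 8.32 that includes 1, so the increase was not detectable at this depth although the ratio passed 2-fold. It was 11.0 at 60 min (4.44 to 35.4), 46.3 at 90 min (19.4 to 145) and 45.1 at 120 min (19.1 to 140). From 90 to 120 min Il10 changed by a factor of 0.974 (0.793 to 1.20), and no change was detectable where Lif and Il6 rose about 6-fold. This step runs from a high to a low Rn45s library. Within the high Rn45s libraries Il10 was 2.37-fold (0.636 to 10.8), 41.8-fold (15.9 to 156) and 52.0-fold (19.9 to 193) above 15 min at 45, 75 and 90 min. From 75 to 90 min the factor was 1.24 (0.971 to 1.60). Between the low Rn45s libraries of 60 and 120 min, Il10 rose 4.09-fold (3.02 to 5.61), much less than Lif or Il6 over the same hour.

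**Figure D1:**
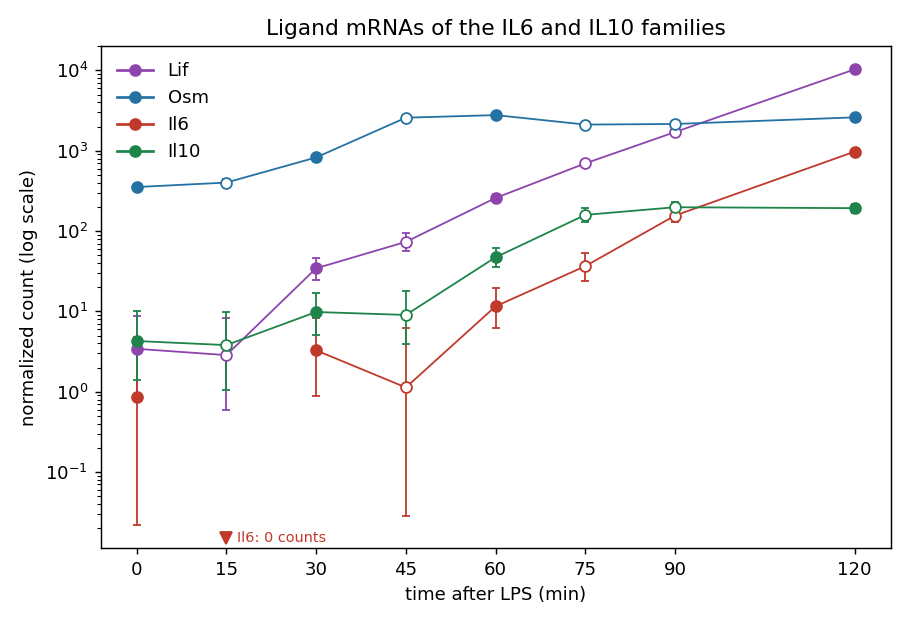
Normalized counts (log scale) of Lif, Osm, Il6 and Il10 against the time after LPS in minutes, 1 point per library, with exact Poisson 95% intervals for counting error. Open points are the libraries of high Rn45s share (15, 45, 75 and 90 min), and the triangle on the lower edge marks the 15 min library with 0 counts of Il6. Osm levels off after 45 min, whereas Lif and Il6 are at their highest at 120 min. Il10 is about level from 90 to 120 min, a step from a high to a low Rn45s library.

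Il6st, which encodes gp130, was abundant throughout. Il6st had 12671, 13062, 14132, 9796, 10068, 6755, 7932 and 11260 counts in the 8 libraries. After division by the size factors, the highest library (15 min) was 1.39 times the lowest (60 min). Relative to 0 min, Il6st stood at 1.15 at 15 min (1.12 to 1.18), 0.827 at 60 min (0.806 to 0.849) and 0.842 at 120 min (0.821 to 0.864), so the level was somewhat lower in the second hour. Within the high Rn45s libraries it was 0.890 of the 15 min level at 45 min, 0.765 at 75 min and 0.810 at 90 min, a decrease of similar size.

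Il6ra encodes the chain that binds IL6 itself and exists in membrane-bound and soluble forms. The libraries held 6027, 6627, 6477, 5110, 4864, 4376, 3933 and 4359 counts of Il6ra. Relative to 0 min, Il6ra stood at 1.22, 1.12, 1.20 and 0.968 in the high Rn45s libraries (15, 45, 75 and 90 min) and at 1.03, 0.840 and 0.685 in the others (30, 60 and 120 min). Each high Rn45s library lay above the low Rn45s libraries next to it in time. Within each set the latest library was nonetheless the lowest, at 0.685 of the first at 120 min (0.659 to 0.713) and at 0.792 of the first at 90 min (0.761 to 0.824). Il6ra was thus at its lowest of the 8 libraries at 120 min, where Il6 was at its highest.

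Il10ra encodes the ligand-binding chain of the IL10 receptor and was the only receptor chain of the 4 past 2-fold. Il10ra was covered by 6332, 6612, 8416, 6976, 10671, 5384, 7747 and 17917 counts. The ratio to 0 min was 1.75 at 60 min (1.70 to 1.81), 1.40 at 75 min (1.35 to 1.45), 1.82 at 90 min (1.76 to 1.88) and 2.68 at 120 min (2.60 to 2.76). The drop between 60 and 75 min, to 0.798 (0.772 to 0.825), again falls between libraries of different Rn45s share. Within the low Rn45s libraries Il10ra increased from each time point to the next, and within the high Rn45s libraries it was 1.25 times the 15 min level at 45 min, 1.21 times at 75 min and 1.56 times at 90 min. Of the gain by 120 min, 51.5% came after 90 min, a step from a high to a low Rn45s library, and between the low Rn45s libraries of 60 and 120 min Il10ra was 1.53-fold higher (1.49 to 1.57).

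Il10rb, whose product is shared by the receptors for IL10, IL22 and the lambda interferons, was the steadiest of the 8. The counts of Il10rb were 6667, 5893, 6769, 4993, 6556, 4058, 4512 and 6860. In normalized counts the highest library was 1.05 times the lowest, and the interval of the ratio to 0 min included 1 at all 7 times. At 120 min it was 0.975 (0.942 to 1.01), but 0.848 when total counts were the scale.

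**Figure D2:**
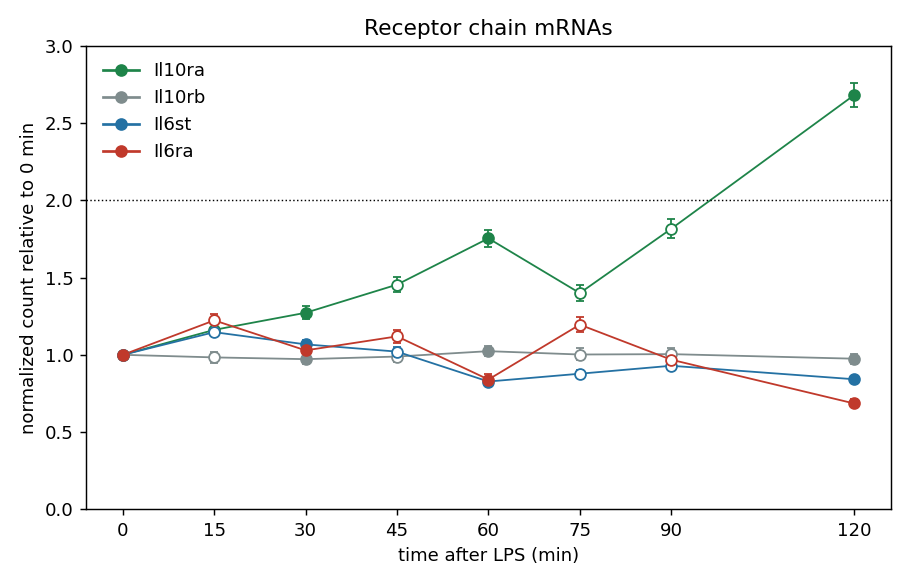
Normalized counts of Il10ra, Il10rb, Il6st and Il6ra relative to 0 min against the time after LPS in minutes, 1 point per library, with exact conditional binomial 95% intervals for counting error. Open points are the libraries of high Rn45s share, and the dotted line is the 2-fold limit, which Il10ra alone passes at 120 min while Il6ra ends at 0.685 and Il10rb stays near 1.

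Levels of different genes were compared as rpkm, that is, reads per kb of unique sequence and per 1000000 counts. At 0 min the receptor chains were the more abundant, with 28.4 rpkm for Il10rb (27.7 to 29.1), 14.0 for Il10ra (13.7 to 14.4), 14.0 for Il6ra (13.6 to 14.4) and 11.2 for Il6st (11.0 to 11.4). Osm stood at 1.42 rpkm (1.29 to 1.57), Il10 at 0.0305 (0.00989 to 0.0711), Lif at 0.00765 (0.00209 to 0.0196) and Il6 at 0.00704 (0.000178 to 0.0392). The intervals of Il10ra and Il6ra overlapped, as did those of Il10, Lif and Il6, so the order within these groups is not resolved. At 120 min the order in rpkm was Il10ra 32.7 (32.3 to 33.2), Il10rb 24.1 (23.5 to 24.6), Lif 20.0 (19.7 to 20.4), Osm 9.12 (8.81 to 9.44), Il6ra 8.34 (8.10 to 8.59), Il6st 8.21 (8.06 to 8.37), Il6 6.97 (6.58 to 7.38) and Il10 1.19 (1.05 to 1.36). Il6ra and Il6st were the only neighbours in this order with overlapping intervals. Lif had thus passed all ligands and both chains of the IL6 receptor by 120 min.

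The ratio of 2 genes within a library does not depend on the scale. Lif mRNA stood at 0.0516 of Osm mRNA in rpkm at 60 min, at 0.440 at 90 min and at 2.20 times Osm at 120 min. Osm exceeded Il6 by a factor of 117 in rpkm at 60 min and of 1.31 at 120 min. Il10 mRNA stood at 3.53 times Il6 mRNA in rpkm at 60 min, at 1.097 times at 90 min and at 0.171 of it at 120 min. Their intervals overlapped at 90 min, so the order turned between 75 min, when Il10 was at 3.76 times Il6, and 120 min. The rpkm ratio of the 2 chains of the IL10 receptor, Il10ra to Il10rb, rose from 0.495 at 0 min to 0.848 at 60 min and 1.36 at 120 min, and in the libraries of high Rn45s share it was 0.585, 0.728, 0.691 and 0.895 at 15, 45, 75 and 90 min. For the IL6 receptor, the rpkm ratio of Il6st to Il6ra was 0.801 at 0 min, 0.588 at 75 min, its lowest, and 0.985 at 120 min.

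**Figure D3:**
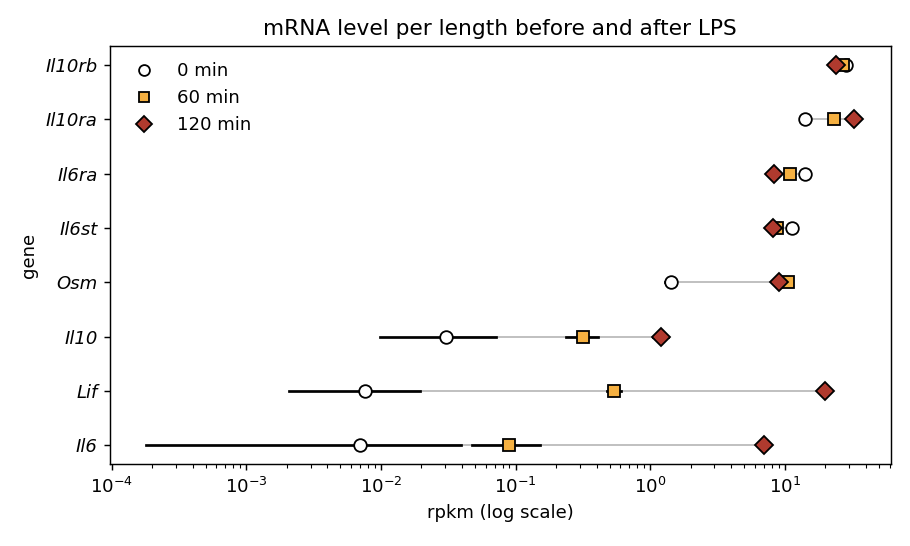
Levels of the 8 mRNAs in rpkm (log scale) at 0, 60 and 120 min after LPS, 1 library per time point, ordered by the 0 min level, with exact Poisson 95% intervals as black bars where wider than the symbols. Lif and Il6 move over about 3 decades and end at 20.0 and 6.97 rpkm, while the receptor chains stay between 8.21 and 32.7 rpkm.

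With the rule for maxima and minima of the study's methods, 5 of the 8 genes had a called extremum, against 23.1% of the 12164 tested genes. The rule takes pairs of libraries, asks for an unadjusted p-value under 0.05 in an exact negative binomial test and for a log2 difference of more than 0.5, and so compares libraries, not conditions. All 5 genes had 1 maximum and no minimum and fell into the group with a first maximum at 60 min or later (g1), which held 9.75% of the tested genes. The maximum was at 60 min for Osm, at 90 min for Il10 and at 120 min for Il6, Lif and Il10ra. Il6st, Il6ra and Il10rb had none (g0). The time of the maximum of Il10 moved to 120 min when total counts were the scale or when the 0, 30, 60 and 120 min libraries alone were used, and without the 60 min library the maximum of Osm moved to 120 min.

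The genes whose time course was most like that of each of the 8 were taken by Pearson's r of log2 normalized counts over the 8 libraries, among 1571 genes that varied at least 2-fold. These r values describe 8 points of 1 time course that share their libraries, and many genes rise together in it. For Il6 they were Pdgfb (r = 0.995), which encodes a chain of the growth factor PDGF, the chemokine gene Ccl9 and Stap1, but 149 genes had an r above 0.95. For Lif they were Ptgs2 (r = 0.997), which encodes the inducible cyclooxygenase, Lilrb4 and the chemokine gene Ccl3, among 172 such genes. For Osm they were Ifrd1 (r = 0.996), Id3 and Cflar, which encodes the caspase-8 regulator c-FLIP, among 59. For Il10 they were Dnajb4 (r = 0.995), Tank and Cenpc1, among 129.

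The receptor chains had fewer close counterparts. For Il10ra the closest were Nedd4l (r = 0.960), Syne1 and Malt1, among 5 genes above 0.95, and for Il6st Zfp40 (r = 0.984), Zfp759 and 2010315B03Rik, among 7. For Il6ra the closest were Nexn (r = 0.947), Tmem86a and Ndst1, and for Il10rb Zfr2 (r = 0.754), Ptger4 and Clk1, with 0 genes above 0.95 for either. The time course of Il10rb spanned 1.05-fold, so the differences behind its r values are small.

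Of the other ligands that signal through gp130 or related chains, 5 of 9 could be tested. At 60 min 0 were past 2-fold, against 3.73% higher and 1.98% lower among all tested genes. At 120 min 2 were higher and 0 lower, against 6.39% and 6.02%. Il27, which encodes the p28 subunit of IL27, went from 22 counts at 0 min to 596 at 120 min (25.7-fold, 16.8 to 41.3), although its ratio at 60 min was 1.23. Ebi3, which encodes the partner subunit of IL27, was at 2.01, just past the limit, and fell short of it at 1.98 with TMM factors, 1.86 with the spike-in counts and 1.75 with total counts. Il11, Ctf1 and Cntf were at 1.37, 1.32 and 0.982. The median log2 ratio of this list at 120 min was 0.44, against -0.01 for all tested genes. The other IL10 family ligands (Il19, Il20, Il22, Iltifb, Il24, Ifnl2 and Ifnl3) had at most 7 counts in any library and none of the 7 could be tested.

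The receptors that would pair with gp130 or bind the related ligands differed in their counts. Of 7 genes, 6 were in the table and 3 could be tested, and 0 were past 2-fold at either time. Lifr, whose product pairs with gp130 in the LIF receptor, was at 1.78 at 120 min. It had 129 counts at 0 min and 243 at 120 min. At 120 min Il27ra was at 0.886 and Il11ra1 at 0.751. Il11ra1 had 738 counts at 0 min and 585 at 120 min. Osmr, which encodes the chain that pairs with gp130 in the OSM receptor, had at most 1 count in any library. Of 5 other IL10 family receptor genes only Il20rb could be tested, under 2-fold at 60 min and at 0.938 at 120 min. The median log2 ratio at 120 min was -0.17 for the gp130-type receptors.

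Downstream of these receptors, 0 of the 7 JAK and STAT genes examined were past 2-fold at 60 or 120 min. At 120 min Jak2 was at 1.90, Stat3 at 1.35, Jak1 at 1.27 and Tyk2 at 1.06, while Stat5b was at 0.745, Stat5a at 0.767 and Jak3 at 0.903 of the 0 min level. Their median log2 ratio at 120 min was 0.09, against -0.01 for all tested genes. The proteases that shed the IL6 receptor from the cell surface were at 1.81 (Adam17) and 1.25 (Adam10).

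Of the inhibitors of JAK-STAT signalling, 8 of 9 could be tested, and 3 were higher at both 60 and 120 min, against 3.73% and 6.39% of all tested genes. Socs3, which encodes the inhibitor that binds gp130, was 11.4-fold higher at 60 min and 50.7-fold higher at 120 min, with 81007 counts. Cish had 0 counts at 0 min and 1281 at 120 min, and passed the limit for testing through the later libraries in which it was high. With 0 min set to 3 counts, it was 34.0-fold higher at 60 min and 405-fold higher at 120 min. The lower limits of its counting intervals were 27.1 and 329. Socs1 was at 3.58 and 3.23 at the same times. Pias3, which encodes an inhibitor of STAT3, was lower at 120 min (0.444), as were 6.02% of all tested genes, whereas Ptpn2, Ptpn11, Pias1 and Ptpn6 stayed between 0.631 and 1.49. The median log2 ratio of the list was 0.46 at 120 min, against -0.01 for all tested genes.

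Of 12 genes known as targets of STAT3 in some cell types, 5 were higher at 60 min and 0 lower, against 3.73% and 1.98% of all tested genes. At 120 min 5 were higher and 1 lower, against 6.39% and 6.02%. The kinase gene Pim1 was then at 31.7, Myc at 26.0, Junb at 8.64 and the survival gene Mcl1 at 3.31. Bcl2l1 was at 0.691 at 60 min and at 2.25 at 120 min. Ddit4, which encodes an inhibitor of mTORC1 signalling, was at 4.61 at 60 min and at 0.451 at 120 min, and Ccnd1 was at 0.506. Sbno2 and Il4ra were at 1.03 and 1.25 at 120 min. With total counts as the scale, Bcl2l1 was at 1.96 at 120 min and no longer past 2-fold, and Ccnd1 was past it at 0.440, as it was with TMM factors (0.499) and the spike-in counts (0.468). The median log2 ratio at 120 min was 0.83, against -0.01 for all tested genes. STAT3 activity itself was not measured.

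**Figure D4:**
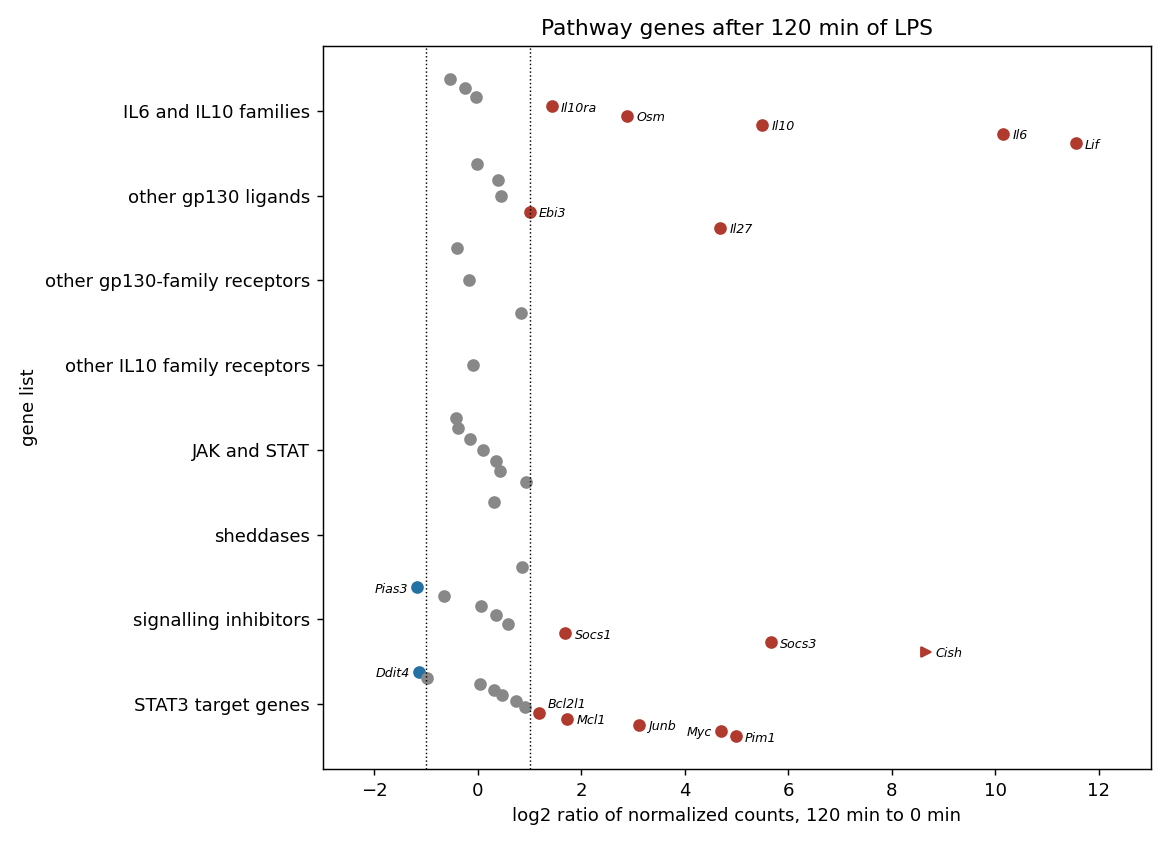
Log2 ratios of normalized counts at 120 min to 0 min for the 8 genes and for the tested genes of 7 related lists, 1 point per gene and 1 library per time point. Genes at least 2-fold higher (red) or lower (blue) are named, and the dotted lines are the 2-fold limits. The arrowhead of Cish is its ratio with 0 min set to 3 counts. The JAK, STAT, sheddase and other receptor genes lie between the lines, as most tested genes do. Of all tested genes, 6.39% were at least 2-fold higher and 6.02% lower. To the right lie 3 of 8 tested inhibitors and 5 of 12 STAT3 target genes, and 1 gene of each of these lists lies to the left.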

How the data were processed

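RAW264.7 RNA, depleted of ribosomal RNA with Ribo-Zero, had been sequenced by the authors with the NEBNext Ultra Directional kit. The authors mapped the 58-base reads to the mm10 RefSeq transcripts with Bowtie (at most 2 mismatches, version not given in the sources used here), discarded reads of more than 1 gene, and deposited raw counts per gene symbol. The submitters' processing notes name CASAVA 1.8.2 and DESeq 1.10.1. Of 23143 rows, 2 are spike-in transcripts and were left out of the genes, and 6176 genes had no count. No per-sample column was left unused.

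The 8 genes and all gene lists were chosen with earlier results of these data known. From the deposited counts, size factors (0.710 to 1.23), ratios with exact conditional binomial intervals, rpkm with exact Poisson intervals, and extrema were computed in R 4.3.3 (edgeR 4.0.16 and DESeq2 1.42.0 for alternatives) and Python 3.11.15 (scipy 1.17.1, pandas 2.3.3, numpy 2.4.6). edgeR's quasi-likelihood test could not be fitted, as 1 library per time point leaves no residual degrees of freedom. For the extrema, all 28 pairs were tested with a dispersion that treats the 8 libraries as replicates. The rule was tested on simulated data. Rpkm used 58-mers unique among the GENCODE vM21 transcripts of genes in the count table. Intervals cover counting error only and treat reads as independent. As reads are not independent molecules, the intervals can be too narrow even for that error.

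Named were all 8 genes, the 3 genes with the highest Pearson's r for each (log2 of the normalized count plus 1, mean normalized count of at least 100), and up to 4 tested genes with the highest and 4 with the lowest 120 min ratio per list. Bcl2l1, Osmr, the other IL10 family ligands, single marker genes and Rn45s were named after their values were seen. 1 further gene of the JAK and STAT list is not reported here. Alternatives were other scales (total counts, with and without Rn45s, TMM, spike-in), a pseudocount of 1, ratio limits of 1.5 and 4, other dispersion trends, Benjamini-Hochberg adjustment, libraries left out, transcript length and Spearman's rho. The spike-in scale, and every other scale for the related gene lists, were added after seeing the data.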

Additional observations from a re-analysis of the deposited data

How the results depend on the processing

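The number of the 8 genes at least 2-fold higher or lower at 60 and 120 min stayed within 1.5 times the reported number under all alternatives tried. With a ratio limit of 4 it was 4 at 120 min, without Il10ra, and with a limit of 1.5 it was 5 at 60 min, with Il10ra. The number with a called maximum or minimum was 5 under every alternative, including each library after 0 min left out in turn. Another scale multiplies all ratios of a library by the same factor, at 120 min by 0.869 for total counts, 0.986 for TMM and 0.924 for the spike-in counts, a scale added after seeing the data. Of 144 recomputed ratios at 30, 60 and 120 min, 32 fell outside their counting interval and 0 of those past 2-fold changed direction. A pseudocount of 1 brought the Il6 ratios at 30, 60 and 120 min to 2.30, 6.78 and 526, over 1.5 times lower. The genes most like each of the 8 depended on the coefficient, as 9 of the 24 were among the 3 highest by Spearman's rho. With the longest transcript as the length or the total without Rn45s as the depth, 14 of 32 rpkm values fell outside their counting interval.

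The depth limits Il6 and Il10 before 60 min, where each library holds 12 counts or fewer, and Lif at 0 and 15 min, with 4 and 3 counts. Without replicates, the spread between cultures is unknown, and no result has a replicate check. No paired analysis was possible because each time point has 1 library.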
